A study of Homo sapiens with 6 samples.

Results

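The 31 genes described here encode the enzymes that place acetyl groups on histones and those that take them off. They were chosen by name, as the rows of the deposited expression table that carry the symbols of the 11 zinc-dependent histone deacetylases (HDAC1 to HDAC11), the 7 sirtuins (SIRT1 to SIRT7) and 13 acetyltransferases or coactivators with reported acetyltransferase activity. All 31 were found, each on 1 row, among 62709 genes. RNA was taken from HepG2.2.15, a hepatoma line made from human HepG2 cells, which has hepatitis B virus DNA in its genome and releases virus. The labels give the genotype as wild type, and every culture received the same medium with fetal bovine serum, antibiotics and G418. In 3 libraries, YQSHJD 1 to 3, the medium had held 10% of a diluted freeze-dried powder of YQSHJD (Yinqi Sanhuang Jiedu Decoction, a Chinese herbal medicine) for 3 days. In the other 3 libraries, saline 1 to 3, the cells had received physiological saline according to the sample labels, or PBS according to the treatment protocol. All cells are of 1 line. Separate cultures are not stated for the replicates, so p-values measure only the spread between these libraries, which may be technical.

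Acetyl groups on histone tails weaken the hold of histones on DNA and are bound by bromodomain proteins, which help recruit the transcription machinery. Acetyltransferases take the acetyl group from acetyl-CoA. The deacetylases of classes I, II and IV use zinc, whereas the sirtuins consume NAD, so both arms of the system are tied to metabolism. Hepatitis B virus DNA in the nucleus is packaged with histones, and the acetylation of those histones is known to accompany viral transcription in infected hepatocytes.

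The 6 libraries held 13370372 to 15615649 reads in genes, recovered from the deposited FPKM values (fragments per kilobase of gene, scaled for depth by the authors). Hepatocyte and hepatoma genes were high in all of them, with a summed level of 4342 to 5238 FPKM over 8 markers in YQSHJD libraries and 2894 to 3158 FPKM in saline libraries. The markers did not all move together. ALB was at 1799 to 2605 FPKM in YQSHJD libraries and 831 to 1011 FPKM in saline libraries. AFP, APOA1, HNF4A and TF were also higher in every YQSHJD library than in any saline library. TTR was lower in every YQSHJD library, and APOB and SERPINA1 overlapped between the groups. Of 4 fibroblast and 3 leukocyte markers, COL3A1, DCN and PTPRC were listed at 0 in every library. The sums of these lists were at most 0.256 FPKM for fibroblast and 0.153 FPKM for leukocyte markers in YQSHJD libraries, and at most 0.567 and 0.265 FPKM in saline libraries. The 3 endothelial markers summed to 5.28 to 6.21 FPKM in YQSHJD libraries and 4.88 to 5.41 FPKM in saline libraries, most of it VWF. The part of these marker shifts in the results was not tested. YQSHJD 1 stood apart from its group, with a mean correlation to the others of 0.976, where the other libraries had 0.981 to 0.990. It lay 0.22 below its group mean on the log2 scale over tested genes with at least 56.8% GC, and 0.14 above it over those with at most 42.4% GC. YQSHJD 3 deviated from that mean the other way, by 0.17 and -0.11 over the same sets of genes. Transcripts of the mitochondrial genome held 43.6% to 52.1% of the summed FPKM in YQSHJD libraries and 38.8% to 43.5% in saline libraries. Rescaling each library to a fixed sum (TPM) moved the median log2 difference of all tested genes to -0.29, against 0.04 with the authors' scaling.

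After 3 days with YQSHJD, the acetyltransferase paralogs EP300 and CREBBP, the MYST acetyltransferase KAT8, the class IIa deacetylases HDAC4 and HDAC5 and the mitochondrial deacetylase SIRT3 were lower than with saline. Their mean FPKM ratios lay between 0.650 and 0.728. NCOA3, a coactivator of nuclear receptors, rose, at a ratio of 1.49. The most abundant members, HDAC1, HDAC3 and KAT2A, and the nuclear sirtuins SIRT1, SIRT6 and SIRT7 did not pass the test. In bulk RNA, fewer cells that express a gene and less of its RNA per cell cannot be told apart.

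Of the 31 members, 26 reached 1 FPKM in at least 3 of the 6 libraries and were tested with limma on log2(FPKM + 1). At a Benjamini-Hochberg adjusted p under 0.05 over all 10966 genes tested, 7 of these 26 were called, 1 higher and 6 lower with YQSHJD, or 26.9%. Of all tested genes 41.4% were called, 23.3% higher and 18.0% lower, so calls were not more frequent among the members than in the transcriptome. YQSHJD and saline values were fully separated in 9 of the 26, or 34.6%, against 55.3% of all tested genes. The median log2 difference was -0.06 over the members and 0.04 over all tested genes, and the median absolute difference was 0.17 over the members and 0.29 over all tested genes. No tested member reached an absolute log2 difference of 1, a size that 582 of all tested genes reached. With TPM rescaling 0 members were called higher and 14 lower, against 876 and 4342 of all tested genes: the 6 above, HDAC1, HDAC3, HDAC6, HDAC7, SIRT1, KAT2A, KAT5 and NCOA2. The 6 then had differences of -0.92 to -0.80. With no filter on low values, without saline 1 and without saline 2, KAT8 alone was called among the members. Calls over all tested genes were also fewer in these settings, at 11.1%, 25.6% and 28.3%, in that order.

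**Figure D1:**
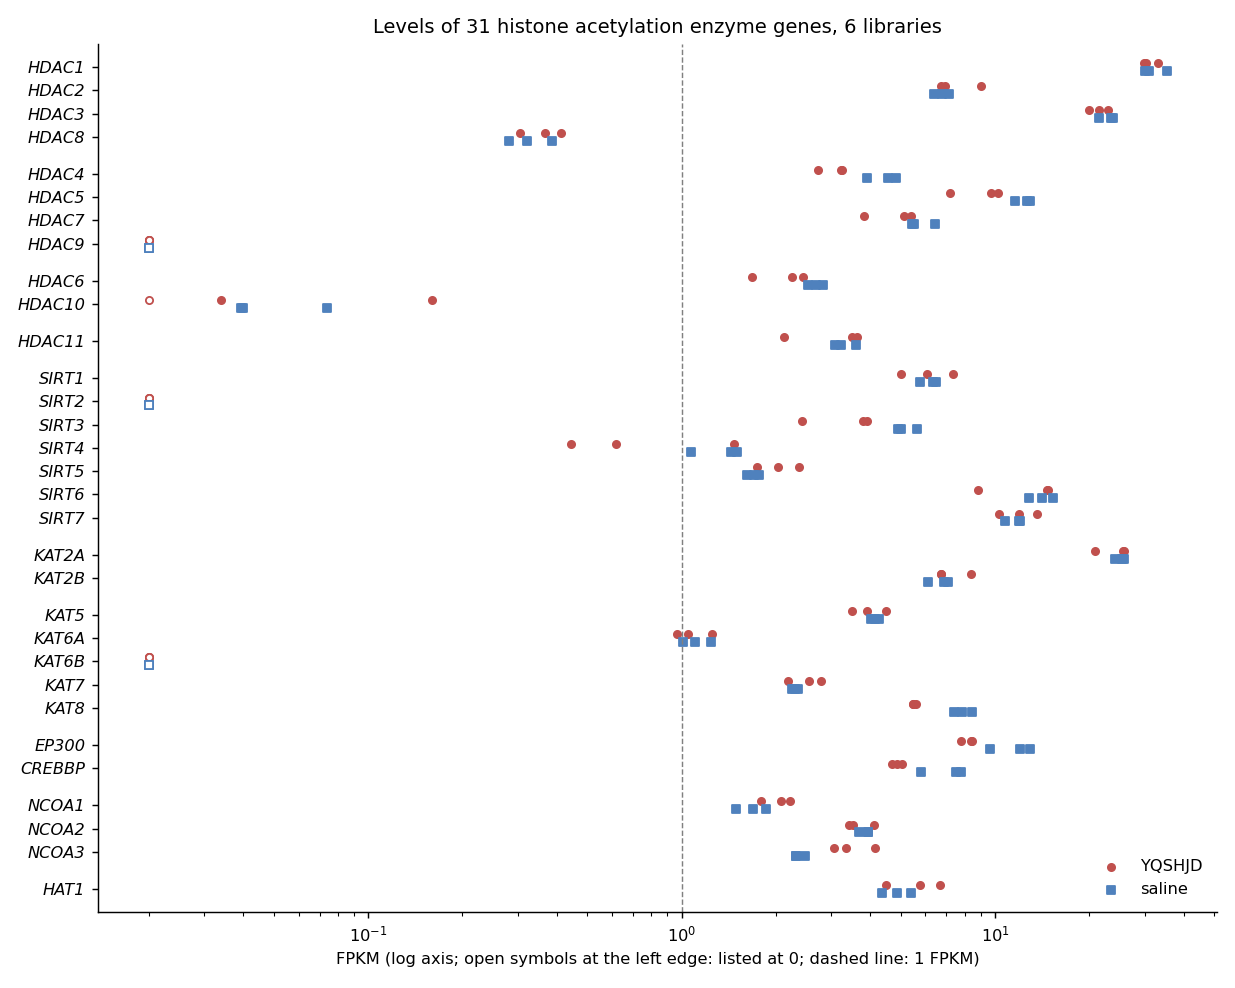
FPKM of each of the 31 genes in each library on a log axis, grouped by enzyme class, with YQSHJD as circles above saline as squares; open symbols at the left edge are listed at 0. HDAC1, KAT2A and HDAC3 lie highest, and 26 genes reach the dashed line at 1 FPKM in at least 3 libraries. The groups are separated for 9 genes: KAT8, EP300, CREBBP, SIRT3, HDAC4, HDAC5, HDAC6 and HDAC7 lie lower with YQSHJD, and NCOA3 higher.

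The levels of the members spanned a wide range. In the YQSHJD libraries HDAC1 led with 31.1 ± 1.77 FPKM, followed by KAT2A with 24.1 ± 2.77 and HDAC3 with 21.4 ± 1.56 FPKM (SD, n = 3). In the saline libraries the same 3 genes led in the same order, with 32.1 ± 2.75, 25.1 ± 0.784 and 22.9 ± 1.26 FPKM. SIRT6 came next in both groups, at 12.8 ± 3.37 FPKM with YQSHJD and 14.1 ± 1.22 FPKM with saline. KAT8 ranked 12th of 31 by mean level with YQSHJD and 8th with saline, CREBBP 13th and 9th, and NCOA3 17th and 21st. The deposited gene lengths are longer than the longest GENCODE transcript for every member, by a factor of 1.00 for SIRT4 to 4.02 for HDAC8, and levels compared between genes depend on that length. Per length of the longest transcript, HDAC3 was first in saline libraries and HDAC1 second.

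Upstream sequences of the 3 coactivator genes that were called are shown because EP300 and CREBBP fell side by side and NCOA3 moved the other way. They are the 250 bases before the start of the gene in RefSeq (GRCh38.p14), read on the gene's strand, 5′ to 3′, and each window lies directly next to the gene boundary that the deposited table gives. Capitals mark GCGTG, the core of the element bound by the dioxin receptor AHR, and TGANNNNGC, the core of the antioxidant element bound by NRF2, on either strand. Both were searched because earlier results of these data included targets of AHR and NRF2. EP300 lies on the plus strand with its window at chr22:41092342-41092591, CREBBP on the minus strand at chr16:3880714-3880963, and NCOA3 on the plus strand at chr20:47501637-47501886.
EP300: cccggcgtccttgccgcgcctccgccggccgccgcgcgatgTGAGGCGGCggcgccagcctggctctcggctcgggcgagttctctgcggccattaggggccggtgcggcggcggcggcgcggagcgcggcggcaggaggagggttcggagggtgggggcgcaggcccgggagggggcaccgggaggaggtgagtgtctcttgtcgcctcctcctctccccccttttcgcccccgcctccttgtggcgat
CREBBP: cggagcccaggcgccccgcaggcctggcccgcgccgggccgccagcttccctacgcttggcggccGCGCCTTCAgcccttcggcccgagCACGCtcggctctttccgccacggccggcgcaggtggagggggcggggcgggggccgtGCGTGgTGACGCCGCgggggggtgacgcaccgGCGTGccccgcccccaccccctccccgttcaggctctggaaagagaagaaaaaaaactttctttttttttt
NCOA3: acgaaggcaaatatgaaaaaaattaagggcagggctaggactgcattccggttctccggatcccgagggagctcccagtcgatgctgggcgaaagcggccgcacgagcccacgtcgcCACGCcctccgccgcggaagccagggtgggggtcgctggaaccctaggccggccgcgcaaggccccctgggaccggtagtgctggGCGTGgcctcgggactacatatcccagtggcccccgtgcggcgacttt
No match overlapped another in these windows. EP300 held 1 TGANNNNGC match, starting 209 bases before the gene. CREBBP held 2 matches of TGANNNNGC and 3 of GCGTG, and NCOA3 held 0 and 2. Of the 31 members, 26 had a promoter in the RefSeq table, while KAT8 and HDAC5, both called lower, had none. Of these 26, 12 held GCGTG and 6 held TGANNNNGC, against 31.9% and 35.4% of 27305 promoters of the same length. Not every counted window lies next to the gene boundary of the deposited table. Those of HDAC2, HDAC4, HDAC7 and HDAC9 lie inside the gene's span, and that of SIRT4 lies apart from it. The E-box CACGTG, bound by MYC and by clock factors, occurred in 2 of the 26 members, SIRT1 and KAT5, and in 6.49% of all promoters. None of these matches shows a bound site.

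EP300 and CREBBP encode p300 and CBP, large coactivators that acetylate histone H3 at enhancers and bind many transcription factors. EP300 (ENSG00000100393, chromosome 22, positions 41092592 to 41180077) measured 7.79, 8.46 and 8.36 FPKM in YQSHJD 1 to 3 and 12.9, 12.0 and 9.63 FPKM in saline 1 to 3. CREBBP (ENSG00000005339, chromosome 16, positions 3725054 to 3880713) measured 4.70, 5.05 and 4.88 FPKM in YQSHJD 1 to 3 and 7.81, 7.49 and 5.78 FPKM in saline 1 to 3. For both genes every YQSHJD library lay below every saline library, and saline 3 was the lowest of the saline libraries. EP300 fell by 0.43 on the log2 scale (standard error 0.12, limma adjusted p = 0.0172). CREBBP fell by 0.44 (standard error 0.12, limma adjusted p = 0.0169). These values rest on 1175 to 1359 EP300 reads and 932 to 1050 CREBBP reads per YQSHJD library, and 1845 to 2296 and 1467 to 1842 per saline library. EP300 held 62.4%, 62.6% and 63.1% of the summed FPKM of the pair in YQSHJD 1 to 3 and 62.3%, 61.5% and 62.5% in saline 1 to 3, so the balance between the paralogs differed by less than 2 percentage points between any libraries. Neither gene passed without saline 1 (adjusted p = 0.0772 for EP300 and 0.0763 for CREBBP) or without saline 2 (0.0680 and 0.0705). CREBBP also missed the threshold after correction for GC content (log2 difference -0.25, adjusted p = 0.0745), and EP300 did not (-0.34, adjusted p = 0.0178).

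The MYST acetyltransferases work in separate complexes. KAT8, which acetylates lysine 16 of histone H4 in the MSL complex and other sites in the NSL complex, fell. KAT8 (ENSG00000103510, chromosome 16, positions 31114489 to 31131393) measured 5.61, 5.48 and 5.49 FPKM in YQSHJD 1 to 3 and 7.83, 8.44 and 7.39 FPKM in saline 1 to 3. The YQSHJD libraries lay close together and below all saline libraries. KAT8 fell by 0.44 on the log2 scale (standard error 0.09, limma adjusted p = 0.00523). It passed under each of the 16 alternatives, the 6 left-out libraries, TPM rescaling and GC correction included, with differences of -0.82 to -0.32. Its share of the summed FPKM of the MYST family, which does not depend on the scaling of a library, was 40.4% to 45.1% in YQSHJD libraries and 49.8% to 52.6% in saline libraries. Overlapping lncRNA genes on the same strand held up to 270 reads per library, and whether the counting used strand is not stated here.

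The other MYST genes did not pass the test. KAT5, the TIP60 catalytic subunit of the NuA4 complex, averaged 3.97 ± 0.495 FPKM with YQSHJD and 4.14 ± 0.121 FPKM with saline (log2 difference -0.05, 95% interval -0.29 to 0.18). KAT7, the HBO1 enzyme, which acts on histones H3 and H4, averaged 2.51 ± 0.301 FPKM with YQSHJD and 2.30 ± 0.0525 FPKM with saline (0.09, interval -0.15 to 0.32). KAT6A, which acetylates histone H3, averaged 1.09 ± 0.144 FPKM with YQSHJD and 1.12 ± 0.115 FPKM with saline (-0.02, interval -0.27 to 0.23). KAT6B, its paralog, was listed at 0 in all 6 libraries. KAT5 shares 73.6% of its span with RNASEH2C on the opposite strand, which held 587 to 867 reads per library, so its counts are uncertain.

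The GNAT acetyltransferases KAT2A (GCN5) and KAT2B (PCAF) are alternative catalytic subunits of the SAGA and ATAC complexes. KAT2A measured 20.9, 25.5 and 25.8 FPKM in YQSHJD 1 to 3 and 25.4, 25.7 and 24.2 FPKM in saline 1 to 3. YQSHJD 1 was the lowest value, while YQSHJD 2 and 3 lay within or just above the saline values. The log2 difference was -0.06 (95% interval -0.30 to 0.17), but TPM rescaling gave -0.42 (adjusted p = 0.0320) and GC correction gave 0.21 (adjusted p = 0.0239), so its direction depends on the correction applied. KAT2B averaged 7.28 ± 0.973 FPKM with YQSHJD and 6.69 ± 0.510 FPKM with saline (log2 difference 0.10, interval -0.15 to 0.36). KAT2A held 71.3% of the pair's summed FPKM in YQSHJD 1 and 79.2% and 79.3% in YQSHJD 2 and 3, against 77.4% to 80.8% in saline libraries. HAT1, the type B enzyme that acetylates newly made histone H4 before it enters chromatin, averaged 5.65 ± 1.10 FPKM with YQSHJD and 4.86 ± 0.517 FPKM with saline (log2 difference 0.17, interval -0.14 to 0.49). The span of HAT1 lies wholly within that of SLC25A12 on the opposite strand, which held 278 to 384 reads per library.

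The NCOA genes encode the steroid receptor coactivators, which bring p300 and CBP to ligand-bound nuclear receptors and for which weak acetyltransferase activity has been reported. NCOA3 (ENSG00000124151, chromosome 20, positions 47501887 to 47656877) measured 4.15, 3.07 and 3.35 FPKM in YQSHJD 1 to 3 and 2.32, 2.32 and 2.48 FPKM in saline 1 to 3. All YQSHJD values lay above all saline values, and YQSHJD 1 was the highest. NCOA3 rose by 0.42 on the log2 scale (standard error 0.11, limma adjusted p = 0.0176). The difference was 0.27 after GC correction (adjusted p = 0.0277). The call was lost with TPM rescaling (log2 difference 0.18, adjusted p = 0.262), without saline 1 (adjusted p = 0.0661) and without saline 2 (adjusted p = 0.0626). NCOA1 averaged 2.03 ± 0.213 FPKM with YQSHJD and 1.68 ± 0.179 FPKM with saline, and NCOA2 averaged 3.68 ± 0.374 FPKM with YQSHJD and 3.85 ± 0.153 FPKM with saline. Neither passed, with log2 differences of 0.18 (95% interval -0.07 to 0.42) and -0.05 (-0.27 to 0.17). Within the family, NCOA3 made up 35.8% to 39.7% of the summed FPKM in YQSHJD libraries and 28.6% to 32.4% in saline libraries, and NCOA2 39.3% to 40.6% in YQSHJD libraries and 48.0% to 49.6% in saline libraries. NCOA2 was thus the leading member in every saline library, while NCOA2 and NCOA3 were within 5 percentage points of each other in every YQSHJD library.

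**Figure D2:**
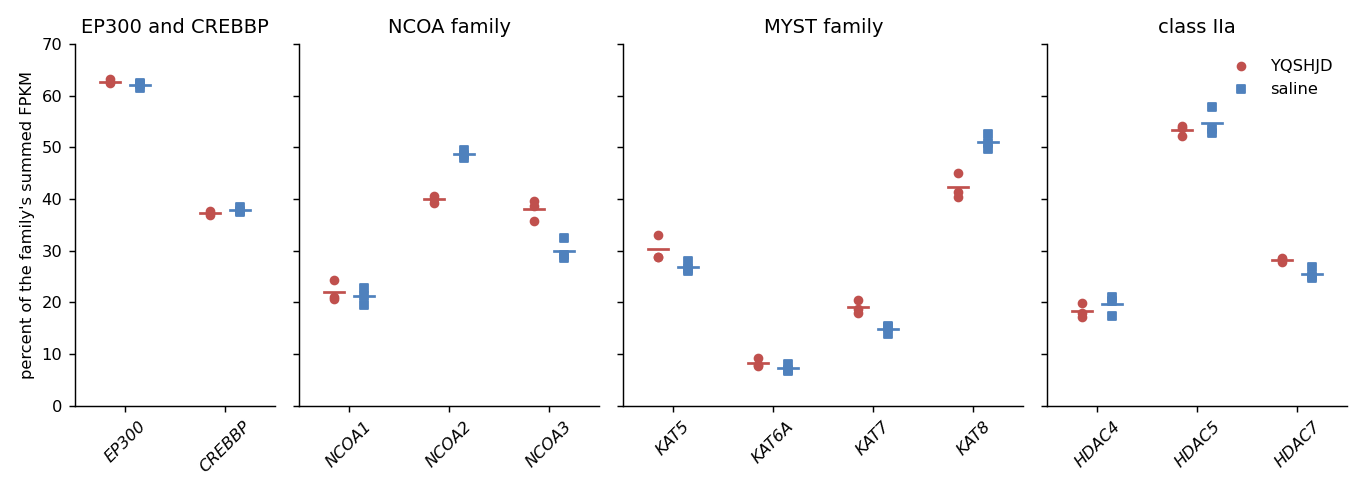
Share of each gene in the summed FPKM of its family (percent), with YQSHJD as circles left of saline as squares and bars at the means of 3 libraries; genes listed at 0 are not drawn. The split between EP300 and CREBBP is alike in all libraries, whereas KAT8 lies at 40.4% to 45.1% with YQSHJD and 49.8% to 52.6% with saline, and NCOA3 lies nearer to NCOA2 with YQSHJD than with saline.

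The class IIa deacetylases shuttle between nucleus and cytoplasm, bind MEF2 factors and have little catalytic activity of their own. HDAC4 (ENSG00000068024, chromosome 2, positions 239048168 to 239401654) measured 2.73, 3.25 and 3.24 FPKM in YQSHJD 1 to 3 and 4.85, 4.56 and 3.91 FPKM in saline 1 to 3. HDAC5 (ENSG00000108840, chromosome 17, positions 44076746 to 44123702) measured 7.18, 9.69 and 10.2 FPKM in YQSHJD 1 to 3 and 12.6, 11.6 and 13.0 FPKM in saline 1 to 3. For both genes the groups did not overlap, and YQSHJD 1 was the lowest library. HDAC4 fell by 0.42 on the log2 scale (standard error 0.11, limma adjusted p = 0.0152) and HDAC5 by 0.43 (standard error 0.13, limma adjusted p = 0.0286). HDAC4 did not pass without saline 1 (adjusted p = 0.0723) or saline 2 (0.0601), and its difference was -0.24 after GC correction (adjusted p = 0.0367). HDAC5 did not pass without any of the saline libraries (adjusted p = 0.0901, 0.0529 and 0.0913 without saline 1, 2 and 3), and its difference shrank to -0.13 after GC correction (adjusted p = 0.154). HDAC5 shares 11.5% of its span with G6PC3 on the opposite strand.

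HDAC7, the third expressed class IIa gene, measured 3.82, 5.11 and 5.39 FPKM in YQSHJD 1 to 3 and 6.43, 5.43 and 5.52 FPKM in saline 1 to 3. The groups did not overlap, but YQSHJD 3 and saline 2 lay next to each other, and the difference of -0.24 did not pass (95% interval -0.54 to 0.05, limma adjusted p = 0.160). HDAC9 was listed at 0 in every library. HDAC5 made up 52.3% to 54.2% of the class in YQSHJD libraries and 52.9% to 57.9% in saline libraries. HDAC7 made up 27.8% to 28.6% in YQSHJD libraries and 24.7% to 26.9% in saline libraries, so its share was higher in every YQSHJD library.

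The class I deacetylases HDAC1, HDAC2 and HDAC3 are the nuclear catalytic subunits of the SIN3, NuRD, CoREST and NCOR complexes. HDAC1 measured 33.1, 29.9 and 30.2 FPKM in YQSHJD 1 to 3 and 31.1, 30.1 and 35.3 FPKM in saline 1 to 3, and the groups overlapped. Its log2 difference was -0.04 with a 95% interval of -0.26 to 0.17. HDAC3, the subunit of NCOR complexes, averaged 21.4 ± 1.56 FPKM with YQSHJD and 22.9 ± 1.26 FPKM with saline (-0.09, interval -0.30 to 0.12). HDAC2, the paralog of HDAC1, averaged 7.57 ± 1.27 FPKM with YQSHJD and 6.75 ± 0.375 FPKM with saline (0.14, interval -0.14 to 0.41). With TPM rescaling HDAC1 had a log2 difference of -0.40 (adjusted p = 0.0189) and HDAC3 one of -0.45 (adjusted p = 0.0135). HDAC8 stayed below the filter at 0.361 ± 0.0544 FPKM with YQSHJD and 0.330 ± 0.0533 FPKM with saline, on 97 to 145 reads per library. It shares 99.9% of its span with a protein-coding gene on the same strand, which held 0 reads, so its counts are uncertain.

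HDAC6, a cytoplasmic class IIb enzyme that deacetylates tubulin, measured 1.67, 2.25 and 2.44 FPKM in YQSHJD 1 to 3 and 2.83, 2.53 and 2.68 FPKM in saline 1 to 3. All YQSHJD values lay below all saline values, but the difference of -0.24 did not pass (95% interval -0.51 to 0.03, limma adjusted p = 0.130). On the recovered reads with limma-voom it was -0.38 (adjusted p = 0.0434). HDAC10, which acts on acetylated polyamines, had 0 to 11 reads per library, and 95.7% of its span is shared with MAPK12 on the same strand, which held 362 to 583 reads. HDAC11, the class IV enzyme, a remover of long fatty acyl groups, averaged 3.08 ± 0.831 FPKM with YQSHJD and 3.31 ± 0.274 FPKM with saline (-0.10, interval -0.45 to 0.25), with YQSHJD 1 lowest at 2.12 FPKM.

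Of the sirtuins, 6 of 7 were tested and SIRT3 was called. SIRT3, the main deacetylase of the mitochondrial matrix (ENSG00000142082, chromosome 11, positions 215030 to 236931), measured 2.42, 3.90 and 3.78 FPKM in YQSHJD 1 to 3 and 5.01, 5.62 and 4.90 FPKM in saline 1 to 3. The groups did not overlap, and YQSHJD 1 was the lowest library. SIRT3 fell by 0.52 on the log2 scale (standard error 0.15, limma adjusted p = 0.0220). Without YQSHJD 1 it was -0.35 (adjusted p = 0.0146). It did not pass without saline 1, 2 or 3 (adjusted p = 0.0595, 0.0763 and 0.0540) or after GC correction (log2 difference -0.28, adjusted p = 0.0528). SIRT3 shares 84 bases with RIC8A on the opposite strand.

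The other mitochondrial sirtuins did not pass. SIRT4 had 7, 9 and 25 reads in YQSHJD 1 to 3 and 20, 27 and 30 reads in saline 1 to 3, so its log2 difference of -0.38 is imprecise (95% interval -0.83 to 0.08), and it reached 1 FPKM in all saline libraries but in YQSHJD 3 alone among the treated. Without YQSHJD 3 it was -0.61 (adjusted p = 0.0109). SIRT5, which removes succinyl and malonyl groups, averaged 2.04 ± 0.312 FPKM with YQSHJD and 1.70 ± 0.0705 FPKM with saline (0.17, interval -0.08 to 0.42). YQSHJD 1 and 2 lay above the saline range and YQSHJD 3 inside it.

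Among the nuclear sirtuins, SIRT1 measured 7.36, 6.08 and 5.01 FPKM in YQSHJD 1 to 3 and 5.77, 6.47 and 6.34 FPKM in saline 1 to 3. The YQSHJD libraries lay on both sides of the saline ones, and the log2 difference was -0.02 (95% interval -0.31 to 0.27). SIRT6, which removes acetyl groups from histone H3, measured 8.86, 14.6 and 14.8 FPKM in YQSHJD 1 to 3 and 14.1, 12.9 and 15.3 FPKM in saline 1 to 3. YQSHJD 1 alone lay below the saline range. The SIRT6 difference of -0.16 had an interval of -0.58 to 0.25 and became 0.22 after GC correction (adjusted p = 0.0843 or more under every alternative). SIRT7, a nucleolar enzyme, averaged 12.0 ± 1.65 FPKM with YQSHJD and 11.6 ± 0.685 FPKM with saline (0.04, interval -0.22 to 0.29), and was called higher after GC correction (0.24, adjusted p = 0.0191). SIRT7 shares 32.5% of its span with MAFG on the same strand, which held 1394 to 1996 reads per library. SIRT2, a mainly cytoplasmic deacetylase, was listed at 0 in every library and cannot be assessed here.

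**Figure D3:**
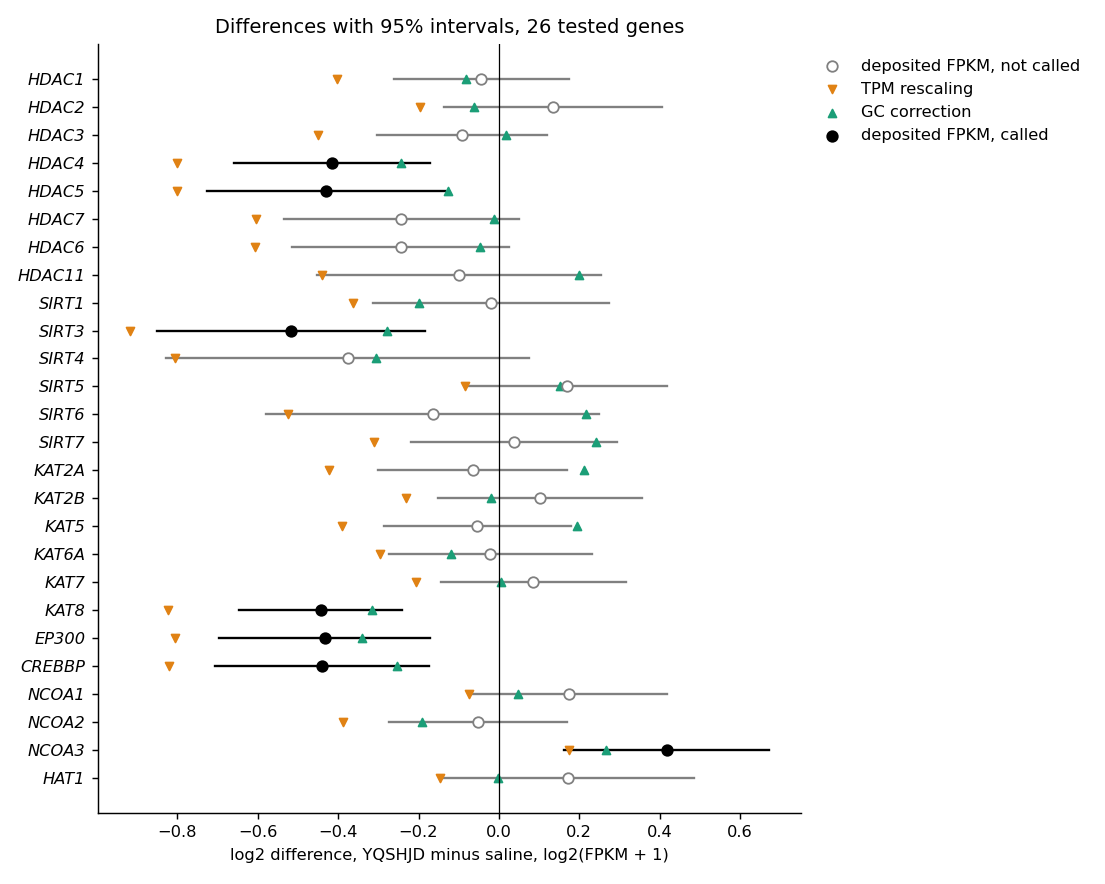
Log2 difference (YQSHJD minus saline) on the log2(FPKM + 1) scale with its 95% interval for the 26 tested genes, filled where called, beside the differences after TPM rescaling (down triangles) and GC correction (up triangles). TPM rescaling lies left of the deposited scaling for every gene, and KAT8, HDAC4 and EP300 are called lower on all 3 scales.

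GC content moved with these differences. The 6 members called lower had a GC content of 52.0% to 61.2% in their longest GENCODE transcript, and NCOA3, the member called higher, had 42.6%. The 19 tested members that were not called spanned 38.2% to 64.9%, a range that includes all the called ones. Over the 26 tested members Pearson's r between GC content and log2 difference was -0.62 and Spearman's rho -0.66, across genes that share the same 6 libraries and so are not independent. The median difference of all tested genes was -0.25 at 56.8% GC or more and 0.25 at 42.4% GC or less. After removal of each library's GC trend, HDAC4, KAT8 and EP300 were called lower and NCOA3, SIRT7 and KAT2A higher, 3 in each direction. The same correction called 27.7% of all tested genes higher and 17.2% lower. Without YQSHJD 1, the library with the strongest GC shift in its group, 1 member was called higher and 6 lower. Among all tested genes 24.4% were then called higher and 18.4% lower. How far GC content contributed was not tested beyond these alternatives.

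**Figure D4:**
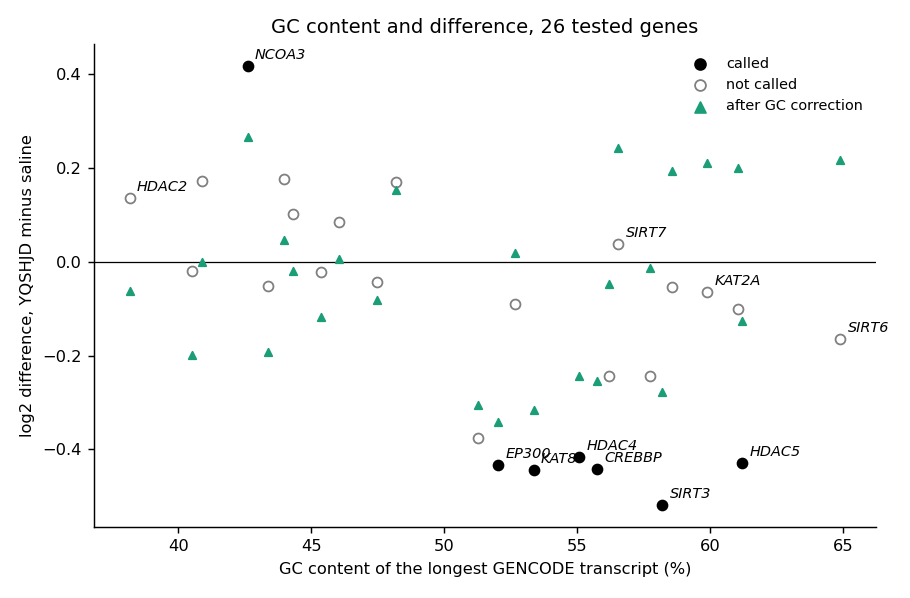
GC content of the longest GENCODE transcript (percent) against the log2 difference (YQSHJD minus saline) of the 26 tested genes, filled where called, with the values after GC correction as triangles. The 6 genes called lower lie at 52.0% to 61.2% GC and NCOA3 at 42.6%, within the 38.2% to 64.9% of the genes not called.

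The balance of the 3 enzyme groups was similar in all libraries. The deacetylases of classes I, II and IV held 42.1% to 43.9% of the members' summed FPKM in YQSHJD libraries and 42.5% to 44.3% in saline libraries. The acetyltransferases held 36.6% to 39.0% in YQSHJD libraries and 35.7% to 38.7% in saline libraries, and the sirtuins 17.1% to 20.4% and 18.7% to 20.0%. The summed level of all 31 genes was 185.8, 192.3 and 198.2 FPKM in YQSHJD 1 to 3 and 211.9, 207.3 and 208.8 FPKM in saline 1 to 3, lower in every YQSHJD library.

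Partner genes of these enzymes were counted in 7 lists with 178 different genes, of which 160 were tested. In all, 25 were called higher and 34 lower, or 36.9%, which is below the 41.4% called among all tested genes (23.3% higher, 18.0% lower), and their median log2 difference was -0.01, where that of all tested genes was 0.04. The lists together held 4 higher and 84 lower genes with TPM rescaling, 9 higher and 12 lower without saline 1, 11 higher and 13 lower without saline 2, and 14 higher and 20 lower without YQSHJD 2.

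Subunits of the deacetylase corepressor complexes numbered 36 tested genes, with 4 called higher and 8 called lower (33.3%, against 41.4% of all tested genes) and a median of 0.04. Without saline 1 or saline 2 the counts were 2 higher and 3 lower, without YQSHJD 2 they were 2 and 4, after GC correction 4 and 5, and with TPM rescaling 0 and 19. RCOR2, a CoREST subunit, averaged 4.43 ± 1.02 FPKM with YQSHJD and 11.0 ± 1.07 FPKM with saline (log2 difference -1.16, limma adjusted p = 0.000505). DNTTIP1, a subunit of the mitotic deacetylase complex with HDAC1, had 14.1 ± 2.44 FPKM with YQSHJD and 21.7 ± 1.25 FPKM with saline (-0.60, adjusted p = 0.00549; -0.40 after GC correction). MIER1 and MIER3, which bind HDAC1, rose by 0.61 and 0.47 (adjusted p = 0.00914 and 0.0131), and both calls were lost with TPM rescaling. The scaffolds NCOR1 and SIN3A, the histone chaperones RBBP4 and RBBP7 and the demethylase KDM1A had differences of -0.03, 0.22, 0.05, 0.06 and 0.05 and did not pass. NCOR1, RBBP7 and KDM1A were called lower with TPM rescaling, at -0.37, -0.30 and -0.28.

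Subunits of acetyltransferase complexes numbered 49 tested genes, with 4 called higher and 11 called lower (30.6%, against 41.4% of all tested genes) and a median of -0.10. There were 0 higher and 3 lower without saline 1, 0 and 4 without saline 2, 4 and 7 without saline 3, 1 and 6 without YQSHJD 2, and 0 and 30 with TPM rescaling. JADE2, a scaffold of the KAT7 complex, averaged 7.55 ± 1.21 FPKM with YQSHJD and 14.2 ± 0.919 FPKM with saline (log2 difference -0.84, limma adjusted p = 0.00106). HCFC1, a subunit of the KAT8-containing NSL complex, fell by 0.54 (adjusted p = 0.0107), a call lost without saline 1, and by 0.23 after GC correction. EPC1 and MORF4L1, both of the NuA4 complex, rose by 0.43 and 0.40 (adjusted p = 0.0142 and 0.0210), and both calls were lost with TPM rescaling and without saline 1 or saline 2, that of MORF4L1 also without YQSHJD 2. After GC correction EPC1 had a difference of 0.21 and lost the call (adjusted p = 0.0652). TRRAP, the large scaffold shared by SAGA and NuA4, missed the threshold at -0.28 (adjusted p = 0.0527).

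Readers of acetyl-lysine numbered 26 tested genes, with 1 called higher and 7 called lower (30.8%, against 41.4% of all tested genes) and a median of -0.14. The counts were 0 higher and 4 lower without saline 1 or saline 2, and 0 were higher without saline 3 or YQSHJD 2. They were 0 higher and 13 lower after GC correction and 0 and 18 with TPM rescaling. MLLT1, a YEATS-domain reader of the super elongation complex, averaged 22.4 ± 4.54 FPKM with YQSHJD and 46.5 ± 3.32 FPKM with saline (log2 difference -1.04, limma adjusted p = 0.000772; -0.69 after GC correction). BAZ1A, a subunit of chromatin remodelers, rose by 0.41 (adjusted p = 0.0342), a call lost under 8 of 16 alternatives, among them those without saline 1, 2 or 3 or YQSHJD 2.

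Of 13 genes of acetyl-CoA supply 7 were called higher and 1 lower, against 23.3% higher and 18.0% lower of all tested genes, and the median difference was 0.30. The counts were 2 higher and 3 lower with TPM rescaling, 3 and 0 without saline 1 or saline 2, and 4 and 0 without YQSHJD 2. ACAT1, the mitochondrial thiolase, averaged 12.0 ± 0.959 FPKM with YQSHJD and 5.52 ± 0.472 FPKM with saline (log2 difference 1.00, limma adjusted p = 0.000181). DLD, the shared dehydrogenase subunit of mitochondrial keto acid complexes, averaged 14.0 ± 3.85 FPKM with YQSHJD and 7.52 ± 0.176 FPKM with saline (0.78, adjusted p = 0.00588). DLD shares 19.6% of its span with LAMB1 on the opposite strand. With PDHA1, PDHB, PDHX and DLAT, named here after their values were seen, all 5 listed subunits of pyruvate dehydrogenase were called higher, by 0.30 to 0.78. After GC correction 4 of the 5 were called, and with TPM rescaling 1 was. Without saline 1 or saline 2 the whole list held 3 higher calls, ACAT1 and DLD among them, so at most 2 of the 5 subunits were called there. The enzymes that make acetyl-CoA outside mitochondria did not pass, with ACLY at 0.06 (83.8 ± 3.15 FPKM with YQSHJD and 80.3 ± 3.96 FPKM with saline) and ACSS2 at 0.16. ACLY was called lower with TPM rescaling, at -0.30 (adjusted p = 0.0474), and ACSS2 higher after GC correction, at 0.32 (adjusted p = 0.0114). ACSS3, a mitochondrial short-chain acyl-CoA synthetase, fell by 0.26 (adjusted p = 0.0477), a call lost with each of the 6 libraries left out.

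Of 12 tested genes of NAD supply and use 3 were called higher and 1 lower (33.3%, against 41.4% of all tested genes), and the median difference was 0.21. The counts were 1 higher and 3 lower with TPM rescaling, 2 and 1 without saline 1 or saline 2, and 5 and 1 without YQSHJD 1. NNMT, which methylates nicotinamide and so removes the NAD precursor, measured 0.418, 0.549 and 0.305 FPKM in YQSHJD 1 to 3 and 4.32, 3.56 and 4.11 FPKM in saline 1 to 3. The log2 difference was -1.81 (limma adjusted p = 1.78e-05), but NNMT passed the filter on low values only through the saline libraries, where it was high. With no filter the adjusted p was 0.000725. NMNAT1, the nuclear NAD synthase, averaged 3.61 ± 0.615 FPKM with YQSHJD and 1.94 ± 0.218 FPKM with saline (0.64, adjusted p = 0.00441). SLC25A51, the mitochondrial NAD carrier, rose by 0.67 (adjusted p = 0.00787), and missed the threshold with TPM rescaling (adjusted p = 0.0525). NAMPT, the rate-limiting enzyme of NAD salvage, was low, at 1.54 ± 0.155 FPKM with YQSHJD and 0.914 ± 0.0586 FPKM with saline (0.41, adjusted p = 0.0152), a call lost without saline 1 or saline 2, with TPM and after the GC adjustment. All saline values of NAMPT lay below 1 FPKM, so it entered the test only through the YQSHJD libraries.

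Of 16 tested partners and kinases of the class IIa deacetylases 5 were called higher and 2 lower (43.8%, near the 41.4% of all tested genes), and the median difference was 0.03. With TPM rescaling the counts were 1 and 6. Without saline 1 the counts were 2 and 0, without saline 3 they were 2 and 1, without saline 2 or YQSHJD 2 they were 4 and 0, and without YQSHJD 3 they were 6 and 4. SFN, the 14-3-3 sigma protein, measured 138, 174 and 202 FPKM in YQSHJD 1 to 3 and 57.4, 44.1 and 52.7 FPKM in saline 1 to 3, and rose by 1.71 (limma adjusted p = 9.09e-05). YWHAZ, 14-3-3 zeta, rose by 0.50, and YWHAH, 14-3-3 eta, fell by 0.31 (adjusted p = 0.0180 and 0.0185). YWHAZ had a difference of 0.15 with TPM rescaling (adjusted p = 0.322). The kinase SIK2, which phosphorylates class IIa deacetylases, fell by 0.31 (adjusted p = 0.0202). YWHAH, YWHAZ and SIK2 lost their calls without saline 1, YWHAH and SIK2 also without saline 2 or YQSHJD 2, and YWHAZ and SIK2 without saline 3.

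Of 10 tested partners of sirtuins and coactivators 1 was called higher and 4 lower, against 23.3% higher and 18.0% lower of all tested genes, and the median difference was -0.21. With TPM rescaling the counts were 0 and 7. Without saline 1 or saline 2 the counts were 0 and 1, and without YQSHJD 2 they were 0 and 3. CITED4, a binding partner of p300 and CBP, averaged 35.6 ± 5.78 FPKM with YQSHJD and 70.5 ± 10.7 FPKM with saline (-0.97, adjusted p = 0.00147; -0.41 after GC correction). CCAR2, an inhibitor of SIRT1, fell by 0.51 (limma adjusted p = 0.0214), a call lost without saline 1, 2 or 3. PPARGC1A, the coactivator that SIRT1 deacetylates, was low, at 1.57 ± 0.269 FPKM with YQSHJD and 0.890 ± 0.0872 FPKM with saline (0.44, adjusted p = 0.0182), a call lost with TPM rescaling, after GC correction, with no filter and without saline 1, saline 2 or YQSHJD 2. All its saline values lay below 1 FPKM, so it too entered the test only through the YQSHJD libraries. Of the 26 named partner genes that were called, 11 were called under every alternative run for them, among them RCOR2, JADE2, MLLT1, ACAT1, NMNAT1 and SFN.

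**Figure D5:**
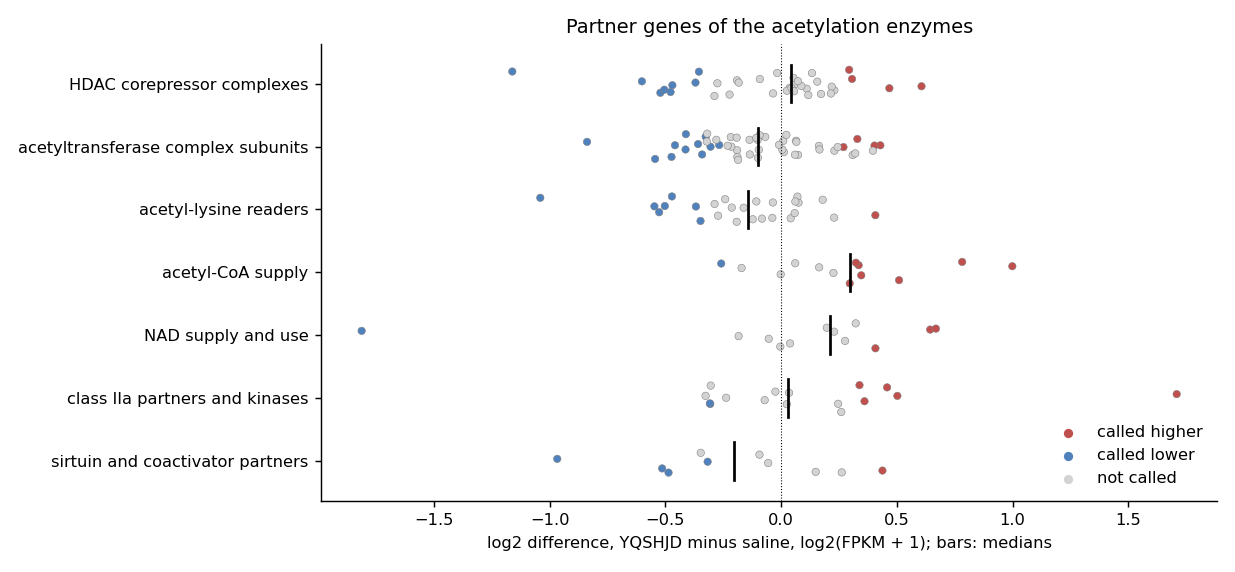
Log2 difference (YQSHJD minus saline) of each tested partner gene in the 7 lists, coloured by call, with bars at the medians. The acetyl-CoA list lies to the right with a median of 0.30 and 7 genes called higher, and the readers to the left with a median of -0.14 and 7 called lower.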

How the data were processed

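Polyadenylated RNA was prepared with a TruSeq kit, per the labels' protocols. The authors deposited FPKM for 62709 genes of 3 YQSHJD and 3 saline libraries. CASAVA 2.19 is named in the submitters' processing notes. The aligner, counter, strand setting, build and annotation were not given in the sources used here. The table also had 1 empty line and 6 further value columns that matched no sample here and were left out. Values multiplied by gene length were whole multiples of the library's smallest nonzero product in 100% of cases (tolerance 0.01). That smallest product was taken as 1 read, which gave the read numbers. The depth that FPKM implies was 0.885 to 0.923 times the reads in YQSHJD libraries and 1.03 to 1.05 times in saline libraries. An exact 0 can be a failed estimate and is given only as listed.

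The 10966 genes that reached 1 FPKM in 3 or more of 6 libraries were tested on log2(FPKM + 1) with limma 3.58.1 (R 4.3.3, two-sided, intensity trend, robust prior). P-values were adjusted over all of them by Benjamini-Hochberg, with a threshold of 0.05. Fold changes on this scale understate changes of low genes. The pseudocount is 1. The members and partner lists were chosen with earlier results of these data known. Named partner genes were the 2 called members of each list with the largest rise and the 2 with the largest fall, and, whatever their values, further genes (NCOR1, SIN3A, RBBP4, RBBP7, KDM1A, TRRAP, ACLY, ACSS2, NAMPT and CCAR2). Some genes of this rule are not reported here. Alternatives were a pseudocount of 0.1, no filter, a minimum of 5 FPKM, TPM rescaling, median-of-ratios scaling, limma with neither trend nor robust prior, array weights, a block for the replicate number, limma-voom on recovered reads with trimmed-mean scaling, and each library left out. A GC correction (loess, span 0.5, on the longest GENCODE 29 transcript, with GC known for 98.6% of genes) was added after seeing the data. The test was checked on simulated data, where the share of false calls was 8.34%, above the nominal threshold of 0.05. Calls with an adjusted p near the threshold are therefore less certain than that value states. Upstream sequences are from RefSeq. Figures were drawn with matplotlib 3.10.9.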

Additional observations from a re-analysis of the deposited data

How the results depend on the processing

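Of 404 values of the 26 tested members under 16 alternatives, 361 stayed on the same side of the threshold, 24 lost a call and 18 gained one. Differences among the 361 that were not called could change sign, as that of HDAC2 did with TPM rescaling (0.14 to -0.20). The remaining 1 turned in sign and was called: KAT2A after GC correction, at 0.21. Among the named partner genes, RBBP7, KDM1A and ACLY turned and were called with TPM rescaling, at -0.30, -0.28 and -0.30. KAT8 was called in all 16. The members called higher and lower numbered 1 and 6, and 0 and 1 with no filter, 0 and 14 with TPM rescaling, 4 and 10 with array weights, and 3 and 3 after GC correction; with a minimum of 5 FPKM 0 were higher. Leaving out 1 library gave 0 to 1 higher and 1 to 7 lower, with 0 and 1 without saline 1 or saline 2. Partner genes called higher and lower numbered 25 and 34, and 9 and 14 with no filter, 4 and 84 with TPM rescaling, 44 and 65 with array weights, 14 and 22 with the replicate block, and 9 to 29 and 12 to 38 without 1 library. All genes called higher and lower numbered 2559 and 1977, and 1606 and 1351 with no filter, 876 and 4342 with TPM rescaling, 4142 and 3236 with array weights, and 1588 to 2675 and 1217 to 2188 without 1 library. After GC correction 3033 of all genes were called higher and 1884 lower. The array weights stopped before the estimate converged. Beyond their construction, the cause of these shifts was not tested.

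No pairing by replicate number was seen: the deviations of libraries with the same number correlated at -0.24, -0.11 and -0.04 for numbers 1, 2 and 3. Those of libraries with unlike numbers correlated at -0.17 to 0.21. With 3 libraries per group this check cannot exclude a pairing. With the replicate block 1 member was called higher and 6 lower, against 18.4% and 15.4% of all tested genes. SIRT4, with 7 to 30 reads per library, is the tested member with the fewest reads, which limits its precision.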
